A study of Mus musculus with 6 samples.

Results

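The loci described here are predicted loci, named by number (Gm names) or by cDNA clone (names ending in Rik) because no function had named them, whose FPKM was higher in the liver of 3 wild mice than in the liver of 3 laboratory mice. They were chosen by measured values. The lowest FPKM of the wild mice had to be at least 1 and at least 4 times the highest FPKM of the laboratory mice. FPKM counts the fragments of a transcript relative to its length and to the size of the library. Of 19113 predicted names listed once for every mouse, 161 met the rule (0.842%), and of all 47243 gene names used, 820 did (1.74%). Since the rule used the contrast between the groups, the difference between wild and laboratory mice is a description of these loci and was not tested.

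The laboratory mice were 3 adult males of the inbred strain C57BL/6. The wild mice were 1 male (wild mouse 1) and 2 females (wild mice 2 and 3), live-trapped as adults at a pair of sites. Wild mice 1 and 2 came from the same site and wild mouse 3 from the other, so site cannot be told apart from that mouse. The wild mice were held for some months under natural light before sampling. All 6 livers were frozen without fixation, and each mouse gave 1 stranded mRNA library. Nothing was given to the mice. The laboratory mice were killed on arrival. The study gives a longer time between preparation and sampling of fixed tissue for the laboratory mice, so frozen storage may have differed too. Origin, history and time since preparation differed together, so they cannot be told apart in a comparison of the groups. Sex differed with them only in part, since wild mouse 1 was male like the laboratory mice. By the rule, each locus was higher in this male too than in every laboratory mouse.

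Most predicted loci are long non-coding RNAs (lncRNAs) or pseudogenes. A processed pseudogene arises when an mRNA is copied into DNA and inserted elsewhere in the genome. It has no introns, usually lacks the promoter of its source gene and keeps much of that gene's sequence, so a short read may fit both places. Genes expressed in every cell, among them those of ribosomal proteins, have left many such copies in the mouse genome.

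**Figure D1:**
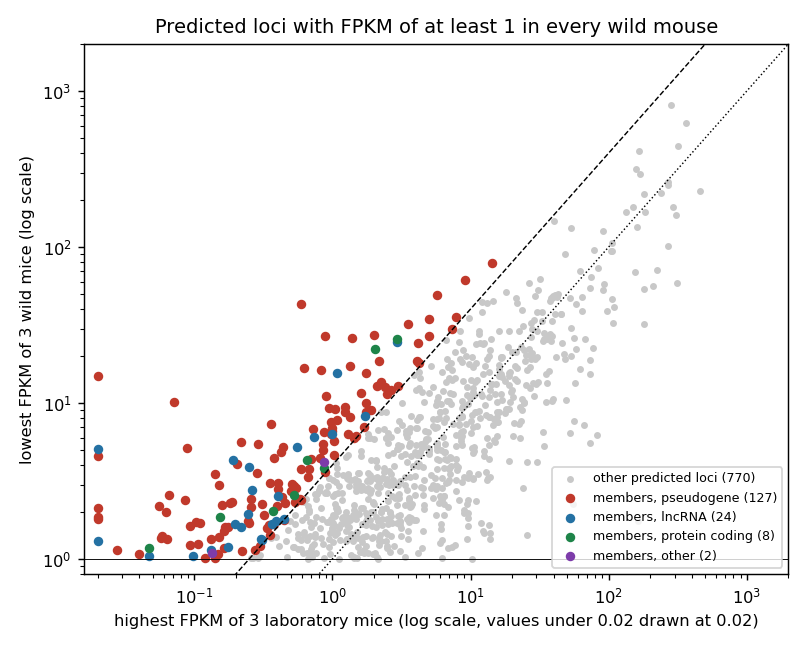
Highest FPKM of the 3 laboratory mice (x axis, log scale, values under 0.02 drawn at 0.02) against the lowest FPKM of the 3 wild mice (y axis, log scale) for 931 predicted loci with an FPKM of at least 1 in every wild mouse. Coloured points are the 161 loci above the dashed line at 4 times the laboratory value, grey points the other 770, and the dotted line marks equal values.

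Over all names the rule was met less often by predicted loci than by names of any kind (0.842% beside 1.74%), and among names with an FPKM of at least 1 in every mouse of the higher group it was met more often. Among predicted names with an FPKM of at least 1 in every wild mouse, 161 of 931 (17.3%) met it, beside 659 of 8817 other names (7.47%) and 820 of 9748 names of any kind (8.41%). The mirror rule, which asks for the same margin in laboratory mice, was met by 33 of 792 predicted names (4.17%) and by 44 of 7692 other names (0.572%). FPKM also ran higher in wild mice over most genes detected in every mouse, and the part of this scale difference in the larger number was not tested. Over the 7938 genes with an FPKM of at least 1 in all 6 mice, the median log2 difference (wild minus laboratory) was 0.82, and it was 0.37 over the 636 predicted names among them. When the FPKM of each mouse was scaled to a common median, 81 predicted loci met the rule in wild mice and 81 met the mirror rule in laboratory mice. Of the other names, 198 met the rule and 137 met the mirror rule on that scale. All 81 on the wild side were among the 161, so the remaining 80 depended on the scale. Of the 10 loci with the highest mean wild FPKM, 6 met the rule on that scale, and Gm13841, Gm16332, Gm7392 and Gm21399 did not. On zFPKM, the authors' score that subtracts the mode of each mouse's log2 FPKM and divides by its SD, 160 of the 161 loci lay higher in every wild mouse than in every laboratory mouse, and 22 did so by a gap of at least 1.

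Marker genes moved between the groups as well. The summed FPKM of 8 hepatocyte markers lay between 53993 and 65455 in laboratory mice against between 34530 and 39939 in wild mice, a sum carried by Apoa2, Ttr and Apoc3. These 3 were lower in every wild mouse than in every laboratory mouse, while Fgb, Tat, F2 and Pck1 were higher in every wild mouse, and Serpina1a overlapped. Those of 4 stellate cell markers lay between 25.8 and 40.3 in laboratory mice against between 70.2 and 127 in wild mice, and those of 5 lymphocyte markers between 3.37 and 3.44 and between 3.80 and 23.8. Most of the stellate sum was Dcn, and Col1a1 lay lower in every wild mouse. Most of the wild lymphocyte sum in wild mice 1 and 3 was Jchain, and Cd79a was lower in every wild mouse. The 3 neutrophil markers summed to between 6.52 and 12.9 in laboratory mice against between 1.74 and 2.57 in wild mice. The sums of Kupffer cell, sinusoidal endothelium, biliary, erythrocyte and acinar pancreas markers overlapped between groups. Of the defining markers, Ly6g (neutrophils) and Prss2 (acinar pancreas) were listed at 0 in all 6 mice. In bulk liver, fewer cells of a type and less RNA per cell cannot be told apart, and the part of these shifts in the results below was not tested.

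By RefSeq, 127 of the 161 loci were pseudogenes (78.9%), 24 were lncRNAs (14.9%), 8 were protein-coding (4.97%) and 2 were other RNAs. Of the 770 other predicted loci with an FPKM of at least 1 in every wild mouse, 63.1% were pseudogenes, 18.8% lncRNAs and 17.4% protein-coding. The 33 loci of the mirror rule held 8 pseudogenes (24.2%) and 22 lncRNAs (66.7%). With FPKM scaled to a common median, pseudogenes made up 61 of the 81 loci higher in wild mice (75.3%) and 30 of the 81 higher in laboratory mice (37.0%). The loci lay on 20 chromosomes, with 15 on chromosome 2, 14 on chromosome 9 and 1 on chromosome 15, and only Gm3776 and Gm10639 lay within 50 kb of each other.

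**Figure D2:**
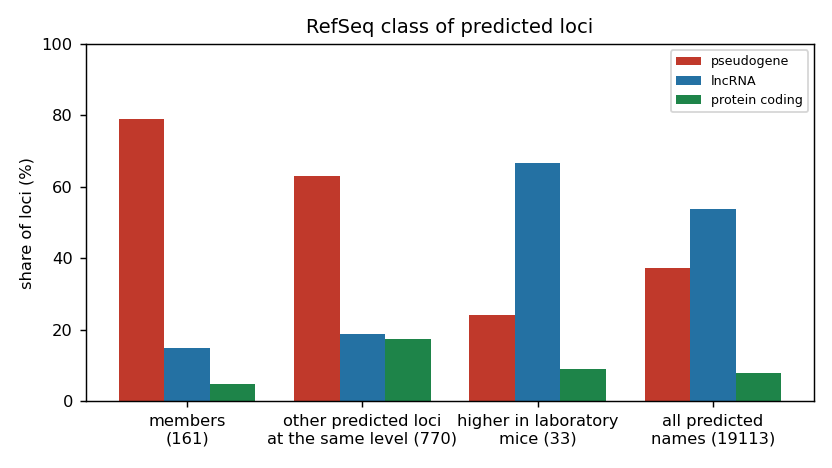
Share of loci (y axis, %) that RefSeq lists as pseudogene, lncRNA or protein coding in 4 sets of predicted loci. Pseudogenes make up 78.9% of the loci higher in wild mice, 63.1% of other predicted loci at the same level, 24.2% of loci higher in laboratory mice and 37.4% of all predicted names.

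The typical locus was near the lower end of detection in laboratory mice and at a few FPKM in wild mice. The median FPKM over the 161 loci was 0.297, 0.356 and 0.292 in laboratory mice 1, 2 and 3, and 4.33, 4.78 and 4.33 in wild mice 1, 2 and 3. In 119 loci the FPKM was under 1 in every laboratory mouse. Cufflinks' bounds imply a median of 6.34 fragments per locus in laboratory mouse 2 and 4.71 in laboratory mouse 3, against 99.7, 123 and 100 in the wild mice (no bounds were used for laboratory mouse 1). In laboratory mouse 2, 62 loci had fewer than 3.5 implied fragments, so a ratio for these rests on very few reads. The ratio of the lowest wild to the highest laboratory FPKM had a median of 7.50, and it was at least 8 in 76 loci, at least 10 in 54 and at least 20 in 27. Pseudogenes had a median of the mean wild FPKM of 5.43, and lncRNAs one of 2.72.

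**Figure D3:**
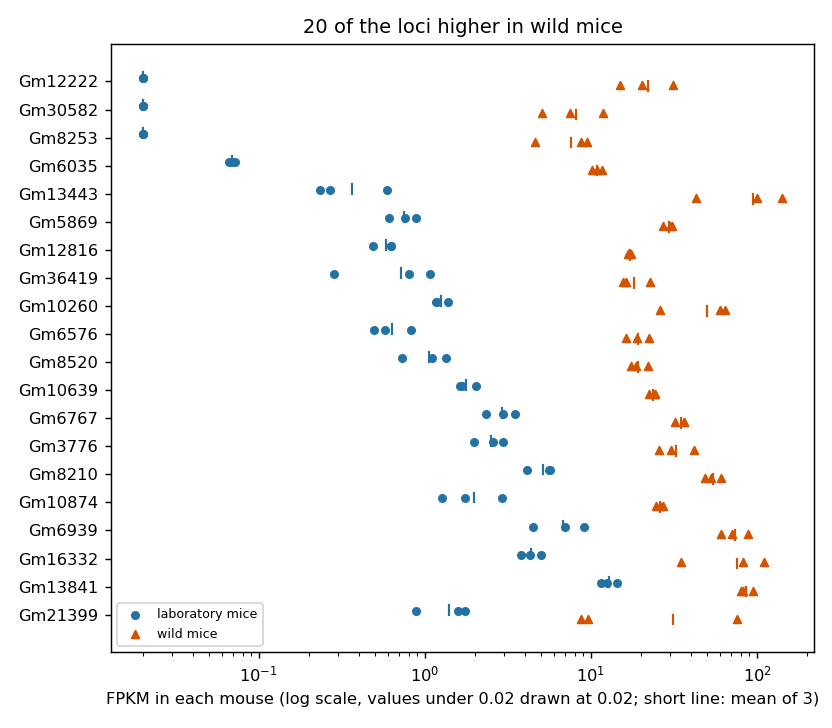
FPKM in each mouse (x axis, log scale, values under 0.02 drawn at 0.02) for 20 of the loci higher in wild mice, with circles for laboratory mice, triangles for wild mice and a short line for each mean of 3. In Gm21399 wild mouse 2 stands far from the other two at 75.4 FPKM.

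In all 3 laboratory mice, 6 loci were listed at 0, namely Gm12222, Gm30582, Gm8253, Gm45910, Gm15190 and Gm11695. Gm12222, a processed pseudogene at chr11:54199365-54199858 that resembles Dbi (an acyl-CoA binding protein), had an FPKM of 31.0, 20.4 and 14.9 in wild mice 1, 2 and 3. Dbi itself measured 1106, 1469 and 1051 FPKM in laboratory mice against 1599, 1473 and 1618 in wild mice. Its difference in zFPKM was -0.13 (standard error 0.0909, adjusted p = 0.405, limma). Dbi thus had a high FPKM in the laboratory mice in which Gm12222 was listed at 0. Whether reads of Dbi entered the FPKM of Gm12222 was not tested, and the sequences of the wild mice are not known. The 2 annotated sequences differ at 15 positions and 1 gap over their 261 aligned columns, and no run of 100 bases is shared. The 100 bases below, from chr11:54199533-54199632 on the plus strand of GRCm38, are shown with their counterpart in the coding part of Dbi because they hold 9 of these differences, in capitals.
Gm12222: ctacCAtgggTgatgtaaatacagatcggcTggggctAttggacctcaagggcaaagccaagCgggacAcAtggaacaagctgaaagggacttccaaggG
Dbi: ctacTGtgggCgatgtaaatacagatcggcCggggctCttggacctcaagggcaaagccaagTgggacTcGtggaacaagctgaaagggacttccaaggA

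Gm8253, a copy of the ribosomal protein gene Rpl26 at chr16:28950882-28951404, had an FPKM of 4.58, 9.52 and 8.76 in wild mice. Rpl26 went the other way, with an FPKM of 747, 762 and 725 in laboratory mice against 259, 129 and 131 in wild mice, and its difference in zFPKM was -1.01 (standard error 0.104, adjusted p = 9.57e-20, limma). Gm8253 and Rpl26 share no run of 100 bases. A stretch of the copy on the minus strand at chr16:28951246-28951345 holds 6 of their 15 differences, in capitals.
Gm8253: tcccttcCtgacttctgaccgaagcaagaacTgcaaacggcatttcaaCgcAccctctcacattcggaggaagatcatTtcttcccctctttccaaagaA
Rpl26: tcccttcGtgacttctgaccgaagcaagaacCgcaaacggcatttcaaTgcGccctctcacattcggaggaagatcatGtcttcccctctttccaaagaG

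Of the other loci at 0, Gm30582 is a lncRNA at chr6:71457502-71479149 with an FPKM of 7.48, 11.8 and 5.11 in wild mice. Gm45910, an unprocessed pseudogene resembling the carboxylesterase gene Ces1c at 87.8% identity, had an FPKM of 2.12, 6.73 and 2.72. It lies 11634 bases from Ces1d, another carboxylesterase gene, whose FPKM was 25.4, 55.4 and 49.8 in laboratory mice against 345, 527 and 409 in wild mice. Ces1d was higher in wild mice by 0.90 in zFPKM (standard error 0.118, adjusted p = 4.19e-12, limma). Gm15190, a copy of Lamtor5, had an FPKM of 1.81, 2.96 and 3.03. Gm11695 is described with the antisense loci. In Gm20950, a pseudogene on chromosome 17, the laboratory values were 8.28e-08, 1.42e-07 and 5.47e-08, close to 0, and the wild values were 1.87, 13.1 and 9.24.

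Among loci with a measurable laboratory level, Gm6035 had the largest ratio, at 141. Its FPKM was 0.0691, 0.0663 and 0.0719 in laboratory mice against 10.8, 10.1 and 11.6 in wild mice. Gm6035 (chr13:115528501-115529797) and Gm12816 are copies of Rpl3, which encodes a protein of the large ribosomal subunit. Gm12816 measured 0.624, 0.490 and 0.627 FPKM in laboratory mice against 17.5, 17.0 and 16.7 in wild mice. Within each group, values of both copies lay close together, and the groups were apart, as the rule requires. Rpl3 rose as well, from an FPKM of 21.1, 27.4 and 24.6 in laboratory mice to 147, 135 and 139 in wild mice (0.63 in zFPKM, standard error 0.133, adjusted p = 6.43e-05, limma). The part of Gm6035 at chr13:115529653-115529752 (minus strand) that differs most from Rpl3 is shown with its 5 mismatches in capitals.
Gm6035: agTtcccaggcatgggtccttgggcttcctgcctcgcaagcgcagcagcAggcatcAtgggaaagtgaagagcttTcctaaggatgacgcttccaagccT
Rpl3: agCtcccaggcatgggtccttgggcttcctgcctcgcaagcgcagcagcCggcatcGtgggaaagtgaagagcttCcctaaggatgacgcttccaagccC

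Gm13443 reached the highest mean level in wild mice. RefSeq names this processed pseudogene at chr2:35340338-35340987 Glo1-ps, a copy of Glo1, which encodes glyoxalase 1, an enzyme that detoxifies methylglyoxal. Its FPKM was 0.590, 0.268 and 0.233 in laboratory mice against 42.9, 99.5 and 142 in wild mice, means of 0.364 ± 0.197 and 94.9 ± 49.8 (SD, n = 3). Wild mouse 1, the male, was lowest and wild mouse 3 highest. Glo1 had its wild values in the same order, with an FPKM of 57.2, 333 and 447, and 127, 149 and 102 in laboratory mice. Wild mouse 1 thus had less Glo1 than every laboratory mouse, and 72.7 times the Gm13443 of laboratory mouse 1, the highest of them. In zFPKM the difference of Glo1 between groups was -0.02 (standard error 0.115, adjusted p = 0.929, limma). The copy is 99.5% identical to Glo1, with 3 mismatches in 555 bases, and 61.6% of its 100-base windows are found unchanged in Glo1.

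Copies of Rpl29, which encodes another protein of the large subunit, included 2 of the 10 highest loci. Gm13841 measured 11.5, 14.4 and 12.5 FPKM in laboratory mice against 94.7, 79.5 and 82.7 in wild mice. It did not meet the rule with FPKM scaled to a common median. Gm8210 had 5.57, 5.71 and 4.14 in laboratory mice against 60.6, 48.9 and 53.0 in wild mice. The third copy, Gm11533, was at most 0.0400 in laboratory mice against between 1.07 and 1.55 in wild mice. Rpl29 itself fell, from an FPKM of 91.8, 92.6 and 84.5 in laboratory mice to 24.1, 22.1 and 22.3 in wild mice (-0.93 in zFPKM, standard error 0.138, adjusted p = 1.29e-09, limma). The sum of Rpl29 and its 3 copies was 108 ± 5.92 FPKM in laboratory mice and 164 ± 15.2 in wild mice (SD, n = 3). The copies, which were chosen for being higher in wild mice, made up 16.7% of that sum in laboratory mice and 86.1% in wild mice. A further 6 copies of Rpl29 with an FPKM of at least 1 in every wild mouse did not meet the rule, and these had a sum of 109 ± 5.80 in laboratory mice against 62.3 ± 4.17 in wild mice. With these 9 copies, the sum was 217 ± 6.80 in laboratory mice against 226 ± 19.0 in wild mice, with shares of 58.6% and 89.9% in the copies. Copies under an FPKM of 1 in any wild mouse were not counted. This filter used wild mice alone, so copies present mainly in laboratory mice would be missing from the sums and shares. The annotated sequences of Gm13841 and Gm8210 are identical over 483 bases and differ from Rpl29 at 3 of them. A stretch of Gm8210 at chr1:43189156-43189255 (plus strand), which Gm13841 shares letter for letter, holds 1 of the 3 mismatches, in capitals.
Gm8210: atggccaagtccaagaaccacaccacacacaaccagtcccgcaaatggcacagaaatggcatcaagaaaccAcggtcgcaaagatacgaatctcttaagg
Rpl29: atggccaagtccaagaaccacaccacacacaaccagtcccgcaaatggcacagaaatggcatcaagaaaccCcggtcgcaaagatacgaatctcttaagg

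**Figure D4:**
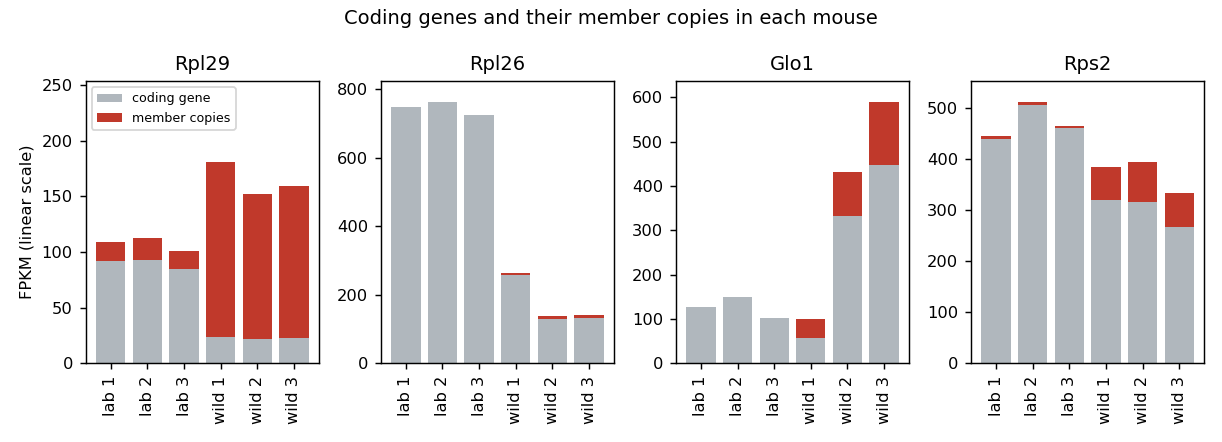
FPKM in each mouse (y axis, linear scale) of 4 coding genes (grey) and, stacked on them, of their copies among the loci higher in wild mice (red). The copies of Rpl29 drawn, which were chosen for being higher in wild mice, rise from 16.7% of the sum in laboratory mice to 86.1% in wild mice while Rpl29 falls, and those of Rps2 rise from 1.06% to 18.7%.

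Rps2, a gene of the small ribosomal subunit, had 5 copies among the loci, namely Gm11249, Gm18025, Gm45855, Gm6576 and Gm8520. Gm6576 measured 0.495, 0.828 and 0.573 FPKM in laboratory mice against 16.3, 22.3 and 18.9 in wild mice. Gm8520 had 1.10, 1.35 and 0.730 in laboratory mice against 17.4, 21.9 and 18.6 in wild mice. Both were highest in wild mouse 2 and lowest in wild mouse 1. The 5 copies summed to 1.06% of the FPKM of Rps2 plus copies in laboratory mice, and in the wild mice to 18.7%. Rps2 itself fell from 440, 505 and 461 to 320, 315 and 267 (-0.48 in zFPKM, standard error 0.103, adjusted p = 8.16e-05, limma). A further 17 copies of Rps2 with an FPKM of at least 1 in every wild mouse did not meet the rule, and with these included the copies made up 17.4% of the sum in laboratory mice and 55.5% in wild mice. Here too, copies below that level in any wild mouse were not counted, so copies present mainly in laboratory mice would be missing.

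Eef1a1, which encodes the elongation factor that brings tRNAs to the ribosome, had 3 copies among the loci and 3 more, at the same wild level, that did not meet the rule. Gm5869 measured 0.611, 0.759 and 0.884 FPKM in laboratory mice against 27.0, 30.9 and 30.0 in wild mice. Gm6767 had 2.34, 2.93 and 3.51 in laboratory mice against 32.1, 36.3 and 36.1 in wild mice. The groups were separate in both copies, as the rule requires, with little spread within them. Eef1a1 rose from an FPKM of 556, 667 and 596 to 1675, 1840 and 1816 (0.27 in zFPKM, standard error 0.0932, adjusted p = 0.0278, limma). Gm5869 lies 2444 bases from Ugt2b35, a glucuronosyltransferase gene that also rose (0.42 in zFPKM, standard error 0.142, adjusted p = 0.0254, limma). Only 7.51% of the 100-base windows of Gm5869 are found in Eef1a1, and a stretch at chr5:86997168-86997267 (plus strand) holds 9 mismatches, in capitals.
Gm5869: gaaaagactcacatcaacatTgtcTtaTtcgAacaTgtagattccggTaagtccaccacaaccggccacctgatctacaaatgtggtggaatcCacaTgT
Eef1a1: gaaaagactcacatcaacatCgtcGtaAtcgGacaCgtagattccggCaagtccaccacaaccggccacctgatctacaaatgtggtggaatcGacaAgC

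The remaining loci with the highest wild levels were of mixed kinds. Of these, Gm16332, Gm7392 and Gm21399 did not meet the rule with FPKM scaled to a common median. Gm16332, an unprocessed pseudogene on chromosome 1, measured 3.79, 5.00 and 4.30 FPKM in laboratory mice against 110, 34.6 and 82.3 in wild mice. Gm10260, a copy of Rps18, had 1.38, 1.18 and 1.17 in laboratory mice against 59.9, 26.0 and 63.9 in wild mice. Wild mouse 2 was the lowest wild mouse in both. Gm7392, a copy of Rps26, had 7.81, 7.90 and 6.69 in laboratory mice against 60.3, 35.6 and 38.2 in wild mice, while Rps26 fell from 1004, 951 and 973 to 510, 530 and 518 (-0.58 in zFPKM, standard error 0.0966, adjusted p = 1.14e-07, limma). Gm21399, a copy of the peroxiredoxin gene Prdx1, had 1.58, 1.75 and 0.888 in laboratory mice against 9.65, 75.4 and 8.69 in wild mice. Wild mouse 2 alone carried the high value, while Prdx1 was even among wild mice at 913, 903 and 938. Gm6939 is described with the loci that overlap a gene.

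Gm3776 and Gm10639 are protein-coding loci of the alpha class of glutathione transferases, enzymes that join glutathione to reactive compounds in liver. They lie 20761 bases apart, at chr9:78257129-78269166 and chr9:78289928-78305525. Gm3776 measured 2.94, 2.59 and 1.99 FPKM in laboratory mice against 25.8, 30.4 and 41.7 in wild mice. Gm10639 had 1.63, 2.02 and 1.68 in laboratory mice against 24.5, 22.3 and 24.2 in wild mice. The named genes they resemble rose too. Gsta1, 99.5% identical to Gm3776, went from 4.05, 4.49 and 3.99 to 49.6, 47.2 and 44.9 (0.97 in zFPKM, standard error 0.172, adjusted p = 7.93e-07, limma). Gsta2, 98.3% identical to Gm10639, went from 25.3, 23.9 and 19.0 to 137, 111 and 124 (0.61 in zFPKM, standard error 0.135, adjusted p = 0.000165, limma). In Gm3776, 71.4% of the 100-base windows are shared with Gsta1.

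The promoter windows of this pair, 250 bases before to 50 after the start in RefSeq, GRCm38.p6, were alike at 295 of 299 aligned columns (98.7%). They are shown because the 2 loci lie near each other, and the capitals mark TTCNNNGAA, the letters that STAT factors bind. That both loci were higher in wild mice was fixed by the rule. Within each group, the mice were not in the same order of FPKM in Gm3776 and Gm10639. The windows are chr9:78256879-78257178 for Gm3776 and chr9:78289678-78289977 for Gm10639, both on the plus strand.
Gm3776: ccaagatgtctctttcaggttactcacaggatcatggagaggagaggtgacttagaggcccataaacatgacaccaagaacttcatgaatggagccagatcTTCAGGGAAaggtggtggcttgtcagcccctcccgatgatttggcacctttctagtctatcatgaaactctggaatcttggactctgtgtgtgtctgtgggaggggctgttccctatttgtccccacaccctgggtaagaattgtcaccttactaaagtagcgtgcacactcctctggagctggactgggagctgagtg
Gm10639: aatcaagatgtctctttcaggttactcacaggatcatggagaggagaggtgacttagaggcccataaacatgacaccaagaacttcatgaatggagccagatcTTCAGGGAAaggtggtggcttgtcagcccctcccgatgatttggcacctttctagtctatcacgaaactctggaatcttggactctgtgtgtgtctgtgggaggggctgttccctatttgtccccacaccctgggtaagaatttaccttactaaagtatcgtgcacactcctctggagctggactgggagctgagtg
Promoter windows were given for 21 of the 161 loci, 30 windows in all. On either strand, TTCNNNGAA was in 4 of them (13.3%, beside 8.30% of 32851 windows of all genes), TATAAA in 2 (6.67%, beside 13.6%) and GGGCGG in 2 (6.67%, beside 35.7%). TGACNNNGC, the core that NRF2 binds, was in 1 (3.33%, beside 12.4%) and in neither window of the glutathione transferase pair. These counts describe letters in windows that partly overlap and were not tested.

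The other protein-coding loci had low levels. 1810046K07Rik measured 0.139, 0.464 and 0.655 FPKM in laboratory mice against 4.29, 6.11 and 5.15 in wild mice. 2410131K14Rik, now named Spring1, encodes a protein of the SREBP pathway of sterol control, and had 0.590, 0.724 and 0.868 in laboratory mice against 3.84, 4.75 and 4.58 in wild mice. E330009J07Rik, now named Dennd11, had 0.365, 0.265 and 0.373 in laboratory mice against 2.04, 2.21 and 2.75 in wild mice. None of these overlapped between groups, as the rule requires. 4930404N11Rik lay between 0 and 0.528 in laboratory mice against between 2.56 and 3.57 in wild mice. Gm11295, which GENCODE lists as a processed pseudogene, lay between 0 and 0.153 and between 1.85 and 2.82. Gm45935 was at most 0.0469 in laboratory mice against between 1.18 and 1.34 in wild mice.

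Copies of coding genes were the largest group. Of the 145 loci with a GENCODE transcript, 117 (80.7%) matched a protein-coding transcript over at least 80% of their length at an identity of at least 80%, beside 473 of 680 (69.6%) other predicted loci at the same wild level. The 117 loci matched 91 genes, 14 of them by 2 or more loci and 7 by 3 or more. Among the latter, counting only the loci higher in wild mice, Rps2 and the RNA-binding protein gene Hnrnpa3 had 5 copies each, and Actg1 (actin), Eef1a1, Odc1 (the first enzyme of polyamine synthesis) and Rpl29 had 3. The Hnrnpa3 copies Gm12960, Gm14730, Gm17082, Gm6793 and Gm8991 had a highest laboratory FPKM between 0.164 and 1.30 and a lowest wild FPKM between 1.17 and 6.34. Among the 107 processed pseudogenes with a match, 23 resembled ribosomal protein genes (21.5%) and 6 resembled hnRNP genes (5.61%). In the 421 other processed pseudogenes at the same wild level these shares were 30.9% and 1.43%.

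Similarity to the source gene was high in these loci and slightly higher in other pseudogenes at that level. The median identity was 98.0% (quartiles 96.6% and 99.3%), beside 98.7% (97.2% and 99.5%) in the others. The median share of 100-base windows, the length of the reads, found unchanged in the matched gene was 22.8%, beside 27.6%. In 9 loci no window was shared and in 5 every window was, beside 27 and 37 of the others. These are descriptions of both sets, and no test was made.

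Most copies remained below the gene they resemble. Both levels were given for 114 pairs, and the locus had the lower mean FPKM in 114 pairs in laboratory mice and in 111 in wild mice. The median level of the locus was 2.06% of that of its gene in laboratory mice and rose to 12.0% in the wild ones. Of 110 pairs with a ratio for both, 102 had the larger log2 ratio of wild to laboratory FPKM in the locus, with medians of 3.58 in the loci, which the rule chose for it, and 1.31 in the genes.

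**Figure D5:**
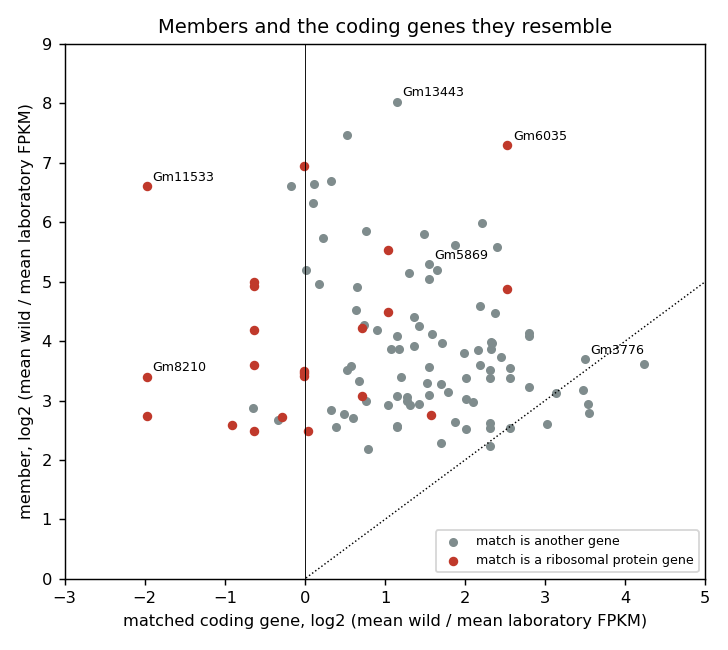
Log2 ratio of mean wild to mean laboratory FPKM in 110 pairs, for the matched coding gene (x axis) and the locus higher in wild mice (y axis), with red for ribosomal protein genes. Most points (102) lie above the dotted line of equal ratios, and Gm8210 and Gm11533 lie left of 0, where Rpl29 fell.

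The matched coding genes are not among the loci and were tested, in a list made after the loci were known. Among them 1110004F10Rik, A430005L14Rik, Gm10358 and Gm15446 are predicted names, which the rule also assessed. A short read may fit a gene and its copy, so values of the genes may not be independent of those that chose the loci. All genes tested were not matched to them in level either, so the shares are descriptions. Of 91 genes, 88 were tested, 23 were higher in wild mice (26.1%) and 6 lower (6.82%), beside 1357 (7.28%) and 1335 (7.17%) of all 18628 genes tested (limma on zFPKM, adjusted p under 0.05). The median difference in zFPKM was 0.17, beside 0.00 over all genes. Of the 11 ribosomal protein genes tested, Rpl3 was higher and Rpl26, Rpl29, Rps14, Rps2 and Rps26 were lower. In all 86 ribosomal protein genes tested, 6 were higher (6.98%) and 39 lower (45.3%), so the share lower among the matched ones (45.5%) was like that of the whole family. Of the 77 other matched genes, 22 were higher and 1, Uqcrb (a subunit of respiratory complex III), was lower. The largest rise was that of Dnajb9, a chaperone of the endoplasmic reticulum, with an FPKM of 2.55, 2.91 and 2.37 in laboratory mice against 34.4, 58.8 and 54.4 in wild mice (1.21 in zFPKM, standard error 0.181, adjusted p = 1.78e-09). Tufm, the mitochondrial elongation factor, rose by 0.99 (standard error 0.159, adjusted p = 2.9e-08, limma), and Ran, the GTPase of nuclear transport, by 0.97 (standard error 0.173, adjusted p = 1.09e-06, limma).

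Calls in these genes depended on single mice and on the scale. The 23 genes higher in wild mice became 14 without wild mouse 2 and 11 without wild mouse 3, 7 with sex as a covariate, 3 without limma's trend and 60 on log2(FPKM + 1), a scale on which the median of all genes was shifted up by 0.20 in wild mice.

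The share of neighbouring genes called higher in wild mice was close to that of all genes. Of 232 named genes that overlapped a locus or were nearest to it within 50 kb, 152 were tested, 11 were higher in wild mice (7.24%) and 7 lower (4.61%), with a median difference of 0.01 in zFPKM. Among those higher were Papss2, which makes the sulfate donor of sulfotransferases (32621 bases from Gm36419, 0.56 in zFPKM, standard error 0.138, adjusted p = 0.000923, limma) and the mitochondrial chaperone gene Hspa9 (15310 bases from Gm6724, 0.92, standard error 0.127, adjusted p = 5.41e-11, limma). Sdr9c7, 1834 bases from Gm40804, rose by 0.97 (standard error 0.184, adjusted p = 5.67e-06, limma), Agk, 3804 bases from E330009J07Rik, by 0.96 (standard error 0.319, adjusted p = 0.0237, limma) and Sf3b6, 33996 bases from Gm6682, by 0.52 (standard error 0.174, adjusted p = 0.023, limma). Those lower included Arpp19 beside Gm2981, Hmg20b beside 4930404N11Rik, Ssbp1 on the far side of E330009J07Rik and Dynlrb2 beside Gm9058, with differences of -0.62, -0.57, -0.52 and -1.66. The number higher was 7 without laboratory mouse 3, 6 without wild mouse 2, 5 without wild mouse 3 and 3 with sex as a covariate.

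In all, 48 of the loci overlapped a named gene, 27 pseudogenes, 17 lncRNAs and 4 protein-coding loci. Of the 43 overlapped genes that were tested, 4 were higher (9.30%) and 3 lower (6.98%) in wild mice, shares near those of all genes tested (7.28% and 7.17%), so the partners described are single cases. By GENCODE, 11 of the lncRNAs are antisense to a coding gene: Gm11695 (Slc16a5), Gm28364 (Aamp), Gm16090 (Dsg2 and Ttr), Gm10532 (Ctif), Gm16124 (Cul5), Gm30177 (Nrn1), 1700018L02Rik (Ak3), 1700034P13Rik (Vcpip1), 4930455C13Rik (Hbs1l), A830035O19Rik (Sidt2) and B430010I23Rik (Mtus1). The libraries were stranded, but whether the counting used strand is not stated, and without it reads of a locus and its partner cannot be told apart. Gm11695 had an FPKM of 1.52, 2.80 and 1.31 in wild mice. Slc16a5, a monocarboxylate transporter gene, had 0.258, 0.258 and 0.672 in laboratory mice against 4.45, 16.8 and 15.6 in wild mice (1.42 in zFPKM, standard error 0.278, adjusted p = 1.16e-05, limma). The partner of Gm28364 moved the same way, with Aamp at 13.3, 18.9 and 14.4 in laboratory mice against 59.9, 61.0 and 57.3 in wild mice (0.43, standard error 0.148, adjusted p = 0.0302, limma). Ttr, the transthyretin gene of hepatocytes, fell by 0.53 in zFPKM (standard error 0.0779, adjusted p = 1.01e-09, limma), while Gm16090 was 0.0942, 0.0942 and 0.307 in laboratory mice against 1.35, 2.12 and 1.98 in wild mice. Under the alternatives the adjusted p of Ttr rose as high as 0.998 (limma). Of the 12 partners, 2 were called higher (16.7%) and 1 lower (8.33%), beside 7.28% and 7.17% of all genes, and for 9 no difference was called, among them Hbs1l, beside 4930455C13Rik at 0.0583, 0.175 and 0.190 in laboratory mice against 6.14, 4.83 and 4.31 in wild mice.

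The other lncRNAs that overlapped a gene were Gm10874, Gm30849, Gm34872, Gm35724, Gm36541 and Gm40158. Gm10874 was the highest lncRNA, with an FPKM of 1.75, 2.93 and 1.27 in laboratory mice against 24.7, 25.9 and 27.1 in wild mice. Of the pseudogenes, Gm6939 overlaps Sult1a1, a phenol sulfotransferase gene, and measured 4.48, 6.94 and 9.06 FPKM in laboratory mice against 61.0, 87.9 and 70.7 in wild mice. Sult1a1 rose from 103, 128 and 141 to 383, 561 and 507 (0.41 in zFPKM, standard error 0.109, adjusted p = 0.00247, limma). Gm6192 overlaps Slc22a27, an organic anion transporter gene, which had 0.0290, 0.271 and 0.419 in laboratory mice against 1.05, 13.6 and 27.4 in wild mice (1.65 in zFPKM, standard error 0.328, adjusted p = 1.75e-05, limma). Gm6192 had 0.297, 0.595 and 0.108 in laboratory mice against 2.41, 4.18 and 4.52 in wild mice, in the same order among wild mice. A pair of overlapped genes fell as well: Cnbd2, around Gm14253, from 55.8, 45.6 and 65.6 to 7.63, 6.97 and 6.77 (-1.28 in zFPKM, standard error 0.16, adjusted p = 2.39e-13, limma), and Phf11c, beside Gm45935, with a difference of -1.84 (standard error 0.329, adjusted p = 1.08e-06, limma).

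A further 24 pseudogenes overlap a gene with no call. The gene was tested for 18 of them and was not tested for 6 (Gm11868, Gm12816, Gm13461, Gm20056, Gm6020 and Gm8615). The 24 were Gm10260, Gm10653, Gm11533, Gm11868, Gm12346, Gm12435, Gm12816, Gm12960, Gm13331, Gm13408, Gm13461, Gm14388, Gm15190, Gm17082, Gm17709, Gm18025, Gm20056, Gm2962, Gm3470, Gm6020, Gm6665, Gm6793, Gm8210 and Gm8615. The mean wild FPKM of all 27 lay between 1.25 and 73.2, and that of the 17 lncRNAs between 1.11 and 25.9. The 4 protein-coding loci, whose partners include Setdb2 (Gm45935), Wee2 (E330009J07Rik), Mfsd12 (4930404N11Rik) and Rnft2 (2410131K14Rik), lay between 1.29 and 4.39.

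Most of the loci had similar values in the 3 wild mice. The rule favours this, because it uses the lowest wild value, and the spread in other genes was not compared. The median coefficient of variation over the 3 wild mice was 15.7%, and in 23 loci the highest wild FPKM was at least 2 times the lowest. In 6 loci it was at least 3 times: Gm21399, Gm20950, 1810053B23Rik, Gm13443, Gm45910 and Gm16332. Wild mouse 1 was the highest in 55 loci, wild mouse 2 in 64 and wild mouse 3 in 42. The 2 females and the 1 male could be compared in a model with sex, in which sex cannot be told apart from that 1 male. The spread came from the other mice, and the male was assumed to vary as they did. The rule asked every wild mouse, male or female, to reach an FPKM of 1 and 4 times the laboratory mice. Loci low in the male or in a female could therefore not enter. This limits the sex differences possible among the loci, so their counts are not comparable with those of all genes. No locus was called higher or lower in females (limma, adjusted p under 0.05), and 1 of 161 had an unadjusted p under 0.05. Of all 18628 genes, 59 were called higher in females (0.317%), 11 lower (0.0591%) and 2023 had an unadjusted p under 0.05. The median difference (female minus male) was 0.34 in zFPKM over the loci and 0.38 over all genes. Over the loci the difference ran from -0.24 in 1810053B23Rik (9.94 in wild mouse 1, 2.78 and 3.85 in wild mice 2 and 3) to 1.23 in Gm20950. Since the median over all genes was positive, estimates in this model lean toward higher in females. Gm5801 had a difference of 0.02 although its FPKM was 5.01 in wild mouse 1 and 2.27 and 2.98 in wild mice 2 and 3. Without laboratory mouse 3, 12 loci were called higher in females. In the same model, 9 of 14 genes known as female-biased in liver were higher in the females and 4 of 10 known as male-biased were lower, and the 9 became 0 without either wild female. Sult3a1, a female-biased sulfotransferase gene, measured 0.438 FPKM in wild mouse 1 against 2076 and 1932 in the females (4.52 in zFPKM, adjusted p = 0.000106, limma), and Cyp4a12a, a male-biased cytochrome P450 gene, had 97.3, 0.287 and 0.0360 (-3.16, adjusted p = 0.00117, limma). Ugt2b1, listed as male-biased, was higher in the wild females (1.33, adjusted p = 0.00609, limma).

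The rule divides loci of similar values. Just inside the ratio of 4 were Gm6665 (4.01), Gm6724 (4.03) and Gm36435 (4.04), and just outside were Gm7729 (3.96), Gm31091 (3.91) and Gm15429 (3.84). Just above the FPKM of 1 were Gm8666 (1.01), Gm5064 (1.02) and 4930459C07Rik (1.04), and just below were Gm21378 (0.996), Gm9449 (0.988) and Gm7859 (0.987), the last listed at 0 in every laboratory mouse.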

How the data were processed

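Gene expression in liver of 6 mice was measured by RNA-Seq, 1 library per mouse. The authors aligned single reads of 100 bases to a masked genome with kalign and calculated the deposited FPKM with the Tuxedo pipeline. The deposited zFPKM is a score, log2 FPKM centred on each mouse's own mode and divided by its own SD. The submitters' processing notes name Picard and the build GRCm38.p6, an assembly of strain C57BL/6J (the labels give the laboratory mice as C57BL6, with no substrain). How reads that fit several copies were assigned is not given in the sources used here, and its part in the FPKM of near-identical loci was not tested. No counts were used, so the edgeR test named in the study's methods was not repeated, and how deeply each library was sequenced is unknown. Precision therefore rests on the 3 mice per group. Beyond sex and trapping site among the wild mice, nothing says that the libraries of a group differ other than by animal. Mice were numbered in accession order, so the numbers pair nothing.

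Gene names listed once in every file were used, less 13 names with a failed estimate in any of the 5 mice in which failures are marked. A failed estimate can be written as 0, so a locus at 0 is described as listed at 0. The file starts were counted from 0, and 1 was added. For 158 of the 161 loci the start then equals that in RefSeq. All 161 matched RefSeq by name and 145 matched GENCODE vM21. Fragments behind an FPKM were inferred from Cufflinks' upper bound, taken as FPKM plus 2 Poisson standard errors, in 5 mice.

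Values of zFPKM under -3 were raised to -3, and the 18628 genes above it in at least 3 mice were tested by limma 3.58.1 in R 4.3.3 (eBayes with trend, Benjamini-Hochberg over all of them). A model with sex gave the difference among wild mice. Both fits were also run on simulated data with no mouse-wide shift and with larger changes than most of those described. Those runs do not gauge the calls reported. Sequences were compared with blastn 2.17.0 (plus strand, E-value limit 1e-10) in Python 3.11.15. Neighbours were the nearest named genes within 50 kb. The loci and lists, and the rule for the loci named, were chosen with earlier results of these data known. Named were the 10 largest ratios, the 10 highest mean wild values, every protein-coding or overlapping locus, loci near each other, those at the thresholds, and called neighbours of these. Other matched genes and loci were named after their values were seen. Some loci that meet the rule, and some sequences, are not reported here. The alternatives were other thresholds, scales, floors and filters, limma without trend, sex as a covariate, other distances and each mouse left out.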

Additional observations from a re-analysis of the deposited data

How the results depend on the processing

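The 161 loci became 302 at a ratio of 2, 76 at a ratio of 8, 81 with FPKM scaled to a common median and 22 with a zFPKM gap of 1, and between 166 and 207 when a mouse was left out. The 1357 and 1335 genes called higher and lower in wild mice became 8 and 15 without a filter on low values, 352 and 443 without trend, 3806 and 3482 after quantile normalization and 2598 and 2680 with a median of 0 in each mouse. The number higher was 6867 on log2(FPKM + 1), 7073 on log2(FPKM + 0.1) and 250 with sex as a covariate. With a mouse left out they ranged from 566 to 1323 and from 661 to 1642.

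The neighbours called higher and lower (11 and 7) were 0 and 0 without a filter, 3 and 3 without trend, 28 and 25 after quantile normalization, 69 and 11 on log2(FPKM + 1) and 71 and 11 on log2(FPKM + 0.1). The number higher was 7 with a floor of -5, 7 within 10 kb and 3 with sex as a covariate, and the number lower was 19 with a median of 0. With a mouse left out, both ranged from 5 to 10. The matched coding genes (23 and 6) were 0 and 0 without a filter, 3 and 2 without trend and 36 and 13 after quantile normalization. The number higher was 60 on log2(FPKM + 1), 61 on log2(FPKM + 0.1) and 7 with sex as a covariate, and the number lower was 3 with a median of 0. With a mouse left out they ranged from 11 to 20 and from 5 to 10. No call in a single neighbour or matched gene therefore held under every alternative. The highest adjusted p (limma) was 0.098 for Rpl26, 0.23 for Ces1d and 0.4 for Dnajb9. The list of matched genes was made after seeing the data, as were the common-median mirror rule and the motif TGACNNNGC.

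No locus was called lower in wild females under any alternative run, and between 0 and 12 were called higher with a mouse left out. The female-biased genes higher in females (9) were 3 with a floor of -5, 4 without a filter and 3 without trend, and from 0 to 13 with a mouse left out, 0 without either wild female. The male-biased genes lower in females (4) were 2, 0 and 0 under the same settings and from 0 to 8 with a mouse left out. The model with sex could not be fitted without wild mouse 1. The other 84 values were within 1.5 times the main one, and the cause of the changes was not tested. No paired analysis was possible because the replicate numbers were given only in accession order and pair no mice. Library depth is unknown, and the loci, chosen for low laboratory values, rest on few implied fragments in laboratory mice.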
